A study of Saccharomyces cerevisiae with 10 samples.

Results

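The 50 genes described here encode proteins that build the ribosome in budding yeast, Saccharomyces cerevisiae. They were chosen by function from the 6677 genes of the deposited tables: proteins of the small nucleolar ribonucleoprotein particles (snoRNPs), the small-subunit processome, assembly factors of the large subunit, and large subunits of RNA polymerases I and III. All 50 were found in both tables. The rule that lists them uses no measured value, although it was chosen with earlier results of these data known. Each library is a PAR-CLIP experiment (crosslinking and immunoprecipitation after feeding cells a photoactivatable ribonucleoside), in which UV light crosslinks RNA to an HTB-tagged protein. According to the design text, the protein followed is RNA polymerase II (Pol II). Only the Nrd1-FRB strain is labelled with its tagged subunit, Rpb2-HTB.

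Of the 5 groups of the study, 3 with 2 libraries each were used. The cassette strain received no rapamycin and is the control of both depletions. It is titled Nab WT with the source name NabCassette, and the labels do not say more of what the cassette is. A strain carrying Nab3-FRB received rapamycin for a time the labels do not state, and a strain carrying Nrd1-FRB with Rpb2-HTB received rapamycin for 45 min. In the anchor-away method, rapamycin binds an FRB-tagged protein to an anchor that carries it out of the nucleus, and its gene stays intact. All cultures were grown in medium with limiting uracil, and the molecule is labelled as nuclear RNA. Strain, depletion and rapamycin changed together, so their parts in a difference cannot be told apart, and a Nab3-FRB strain without rapamycin was not analysed here. The labels do not tell whether both libraries of a group were grown as separate cultures. The p-values therefore cover the spread between these particular libraries, which may be technical.

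Ribosome assembly starts in the nucleolus, where RNA polymerase I transcribes the long ribosomal RNA precursor and snoRNPs, helicases, GTPases and scaffold proteins modify, fold and cut it. The protein genes of this pathway are transcribed by Pol II and are known as the ribosome biogenesis regulon: their expression follows growth, and blocking TOR, the kinase that rapamycin inhibits, turns them down in sensitive cells. Anchor-away strains usually carry a resistant form of TOR, and whether these strains do is not stated in the labels. A pair of promoter elements marks the regulon. The PAC element is bound by the repressors Dot6 and Tod6, and the RRPE element by the repressor Stb3. Nab3 and Nrd1 are the RNA-binding subunits of a complex that ends transcription of many short noncoding RNAs, snoRNAs and some messenger RNAs.

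The promoters of the members were read first, because these elements are what the genes share beyond the functions by which they were chosen. Windows from 250 bases before to 50 bases after the annotated gene start, which is the start codon, came from the RefSeq R64 genome. The PAC core was searched as GATGAG and the RRPE core as AAAATTT, on both strands. Stretches from 6 members are shown, each with 10 bases beside the outermost of the matches shown. The first 4 belong to the members with the largest log2 fold changes after Nrd1 depletion, and the last 2 to those with the smallest in absolute value. Each is written 5′ to 3′ on the strand of the gene, and capitals mark every PAC or RRPE core match (CTCATC and AAATTTT are the cores on the other strand).
UTP5: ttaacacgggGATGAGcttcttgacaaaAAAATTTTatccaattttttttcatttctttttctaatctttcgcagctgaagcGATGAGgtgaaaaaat
ENP1: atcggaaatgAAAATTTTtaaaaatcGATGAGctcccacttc
NSR1: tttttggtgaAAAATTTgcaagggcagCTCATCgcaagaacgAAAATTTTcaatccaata
NOP8: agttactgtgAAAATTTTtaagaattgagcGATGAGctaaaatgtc
NUG1: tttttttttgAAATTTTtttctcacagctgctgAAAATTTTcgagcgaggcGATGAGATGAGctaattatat
DRS1: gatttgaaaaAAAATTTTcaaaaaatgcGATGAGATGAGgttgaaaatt

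On R64 these stretches lie at chrIV:1267258-1267355 (plus strand, UTP5), chrII:714560-714601 (minus strand, ENP1), chrVII:807811-807870 (minus strand, NSR1), chrXV:52969-53014 (plus strand, NOP8), chrV:162569-162640 (plus strand, NUG1) and chrXII:131582-131630 (plus strand, DRS1). All lie upstream of the start codon, the nearest ending 83 bases before it. Both elements stand in the 4 promoters with the largest changes and in the 2 with the smallest. NUG1 and DRS1, the latter 2, hold a pair of overlapping PAC cores.

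Across the list, 49 of 50 promoter windows (98.0%) held a PAC core and 48 (96.0%) an RRPE core. Both were found in 47 (94.0%), and no window lacked both. Of all 6001 protein-coding genes, 20.4% held a PAC core, 23.2% an RRPE core and 7.75% both. The elements are not particular to these members. Of 156 other genes of the pathway, 78.85% held a PAC core, 80.77% an RRPE core and 69.87% both. Of the 171 genes that the authors' deposited table labels Ribi, 32 of them members, 87.72% held a PAC core, 87.13% an RRPE core and 79.53% both. Among the 129 genes that the authors' deposited table labels Ribosome, which are ribosomal protein genes by name, the shares were 10.1% and 29.5%. UTP22 held no PAC core, and RRP9 and MAK5 held no RRPE core. Without the 50 bases after the start the shares were 96.0% and 96.0%, since the only PAC match of UTP4 lies inside its gene.

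The positions of the elements were read without a comparison with other promoters. Upstream, the nearest PAC match ran from -204 (NOP1) to -1 (RPA135). The nearest RRPE match ran from -224 (NOP1) to -17 (NOP12). The PAC match nearest to the start codon began at a median of -117 bases (interquartile range -131.75 to -100.75, 48 members) and the RRPE match at -134.5 (-154.75 to -112.5, 48 members). The RRPE match lay farther from the gene in 39 of the 46 members with both upstream. In 42 members the RRPE core was followed by a further T, which makes it its own reverse complement and counts as 2 overlapping matches. That longer form was in 9.03% of all protein-coding windows. Overlapping PAC pairs, as in NUG1 and DRS1, were in 16 members. A match is a description of these letters and does not show that a factor binds there.

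**Figure D1:**
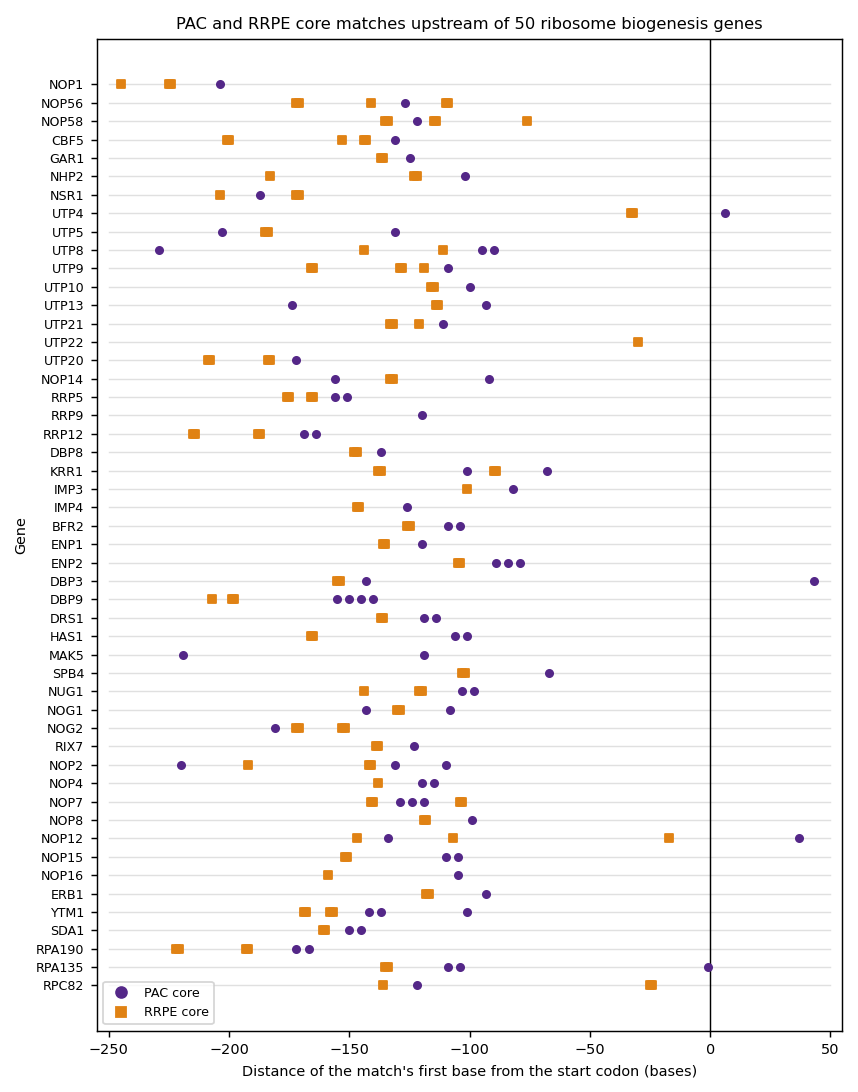
Each line is the promoter window of 1 of the 50 genes, from 250 bases before to 50 bases after the start codon (x axis, distance of the first base of a match in bases), and points mark the PAC core (circles) and the RRPE core (squares). The median of the nearest upstream match is -117 for circles and -134.5 for squares.

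The members lie on 13 chromosomes, 26 of them on the plus strand, and no member has another member as its neighbour. The upstream neighbour is transcribed divergently for 23 members and lies on the same strand for 27. For YTM1, a partner of Nop7 and Erb1, that neighbour is the snoRNA gene SNR8, 291 bases away on the same strand. NOG2, which encodes a GTPase of the large subunit, is the member with an intron (chrXIV:721771-722302, 532 bases). Its intron holds the snoRNA gene SNR191 (chrXIV:721938-722211, same strand). The counted span of NOG2 includes the intron, and whether intron reads were counted is not given in the sources used here.

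Depth ranged from 7395659 to 13428820 recovered reads per library, and the 2 Nrd1 libraries were the shallowest of the 6. Their part in the results below was not tested. Each member had between 1147 and 16183 reads in every library. Values are given below as normalised reads, which are reads divided by a size factor of the authors, with the Nrd1 libraries multiplied by 1.18 to bring the tables onto one scale. The members held 1.91% and 1.92% of all reads in the cassette, 1.89% and 1.79% with Nab3 depleted and 2.12% and 2.11% with Nrd1 depleted. Their share was thus highest in both Nrd1 libraries, and the Nab3 libraries lay below both cassette libraries. Libraries of a group differed by a median of 0.05 (log2, absolute) over the members in the cassette, 0.08 after Nab3 depletion and 0.06 after Nrd1 depletion. The widest gaps were 0.19 for GAR1 in the cassette, 0.28 for NOP16 after Nab3 depletion and 0.27 for UTP22 after Nrd1 depletion. NRD1 itself had 1959 and 2103 normalised reads in the cassette, 7487 and 8536 with Nab3 depleted and 8805 and 8250 with Nrd1 depleted. NAB3 had 2542 and 2573, 2277 and 2312, and 2290 and 2403. Neither gene checks the depletion, which acts on the protein.

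Per length, the members were well covered in the cassette. Their median was 1840 normalised reads per kb, against 954 over the 6385 features tested, and 49 of 50 lay above that overall median. The level ran from 878 per kb for UTP22, which encodes a protein of the UtpC complex, to 6644 per kb for NOG2. The genes of the snoRNP core proteins stood near the top: CBF5, the pseudouridine synthase of the box H/ACA particles, and NOP56, a core protein of the box C/D particles, were among the highest after NOG2, together with NOP15 of the large subunit. The lowest after UTP22 were UTP20, a very large processome protein, SDA1 and MAK5 of the large subunit, with 1066, 1078 and 1106 per kb. The 2 cassette libraries differed little beside this range.

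**Figure D2:**
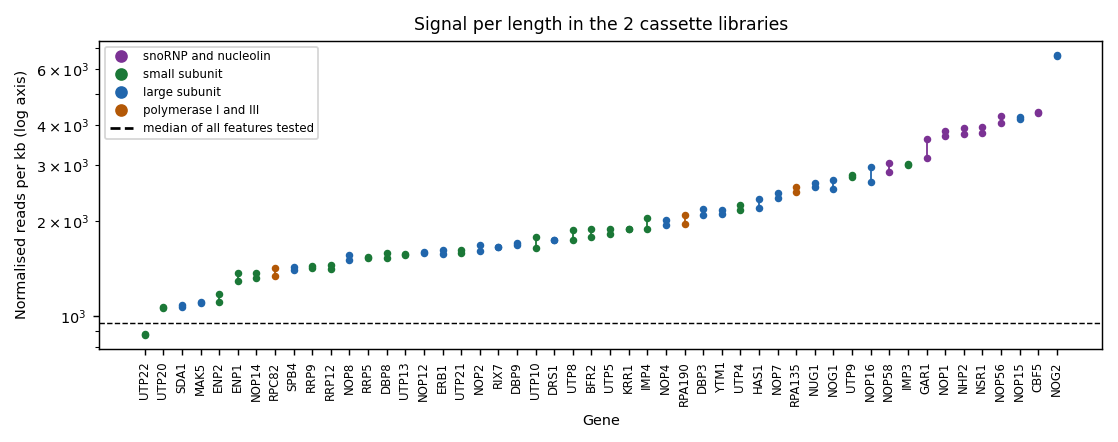
Normalised reads per kb (log axis) of the 50 genes in the 2 cassette libraries (points, joined by a line), ordered by their mean and coloured by class. The dashed line is the median of all features tested, 954 reads per kb, and UTP22 alone lies below it.

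After Nrd1 depletion, 15 of the 50 members rose against the cassette and 0 fell (limma, adjusted p under 0.05). The rise was small: the largest, of UTP5, was 24.7%, and no member reached 2-fold in any comparison. Over all 6347 features tested, 17.5% were called higher and 17.8% lower, against 30% and 0% of the members. Among the 2185 features with a mean at least that of the lowest member, 19.5% were called higher and 17.3% lower. The median log2 fold change of the members was 0.14 (interquartile range 0.01 to 0.24) and that of all features -0.0044. Both Nrd1 libraries lay above both cassette libraries for 35 members and below for 2, where the same held for 35.8% and 37.0% of all features. All 15 calls needed both cassette libraries: without cassette library 1 or 2 none held, while the members' median was 0.15 both times. Calls over all features also became fewer in both cases. Without Nrd1 library 1 or 2 the members' median was 0.14 or 0.15. Without the mean-variance trend 7 of 50 members were called higher, as were 829 of all 6347 features, a similar share.

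**Figure D3:**
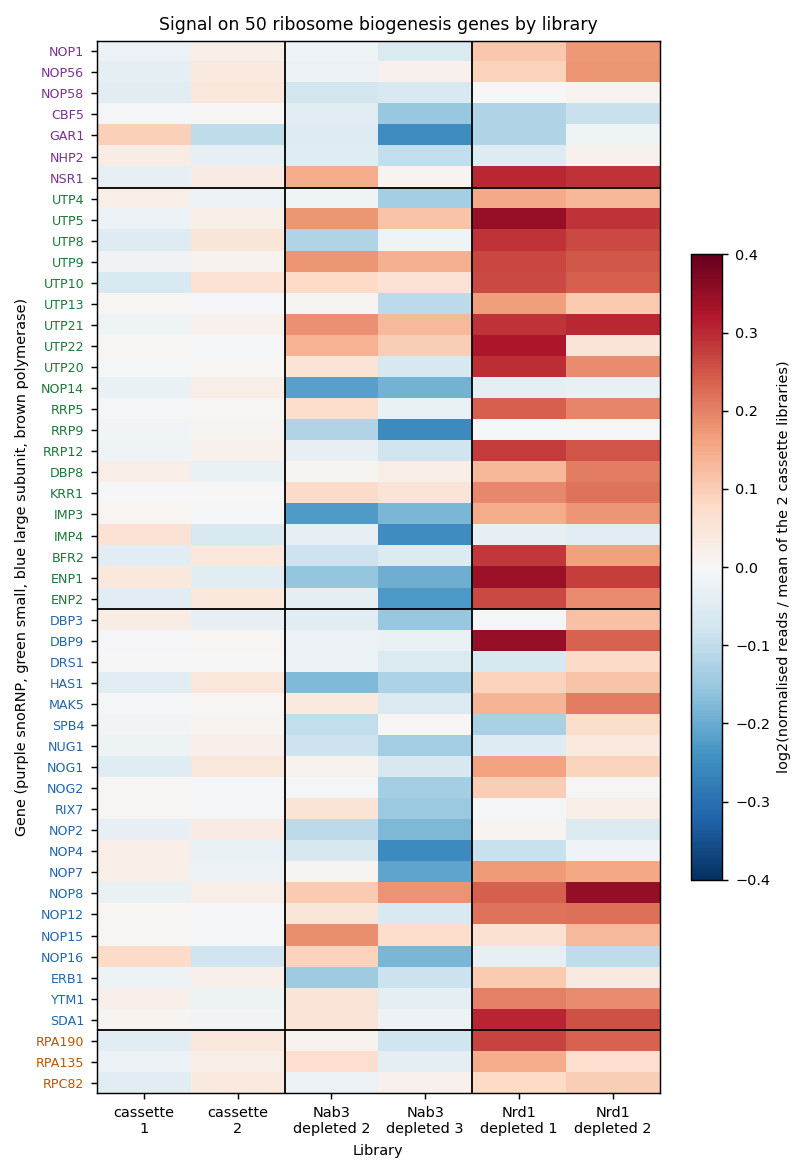
Each cell is the log2 ratio of 1 gene in 1 library (columns) to the mean of the 2 cassette libraries, with genes (rows) ordered by class: snoRNP, small subunit, large subunit and polymerase. The Nrd1 columns are mostly red, the Nab3 columns mixed, and the rows of UTP5, ENP1 and SDA1 are among the deepest red after Nrd1 depletion.

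Small-subunit factors made up most of these calls: 9 of 20 (45.0%) rose after Nrd1 depletion, against 17.5% of all features. Their median log2 fold change was 0.22. The UtpA complex, which binds the start of the ribosomal RNA precursor, had 3 of its 5 listed genes called. UTP5 had 3519 and 3638 normalised reads in the cassette, 4041 and 3875 with Nab3 depleted and 4551 and 4375 with Nrd1 depleted. UTP9 had 4735 and 4830, then 5411 and 5274, then 5758 and 5686. For these UtpA genes the 3 groups did not overlap, with the cassette lowest and the Nrd1 libraries highest. UTP8 had 3731 and 3995, then 3555 and 3815, then 4720 and 4641. Its Nab3 libraries overlapped the cassette and its Nrd1 libraries stood above all others. The log2 fold changes after Nrd1 depletion were 0.32 ± 0.06 (SE, adjusted p = 0.00766) for UTP5, 0.26 ± 0.06 (adjusted p = 0.0179) for UTP9 and 0.28 ± 0.06 (adjusted p = 0.0152) for UTP8. UTP4 and UTP10, the other UtpA genes of the list, lay above the cassette in both Nrd1 libraries with 0.14 and 0.25, and did not pass the test. UTP10 has a long reading frame and 10925 and 10725 normalised reads after Nrd1 depletion.

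UTP21 encodes a repeat protein of the UtpB complex, the next to join. It had 4462 and 4565 normalised reads in the cassette, 5125 and 4937 with Nab3 depleted and 5512 and 5558 with Nrd1 depleted. As for UTP5 and UTP9, the groups did not overlap and the Nrd1 libraries were highest (0.29 ± 0.06, adjusted p = 0.0107). UTP22, the listed UtpC gene, had 3275 and 3248, then 3591 and 3488, then 4080 and 3380. Its first Nrd1 library was high and its second was below the Nab3 libraries, and the difference of 0.19 did not pass.

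Other small-subunit genes that rose act later or around the processome. ENP1, whose product is found in early and late precursors of the small subunit, had 1988 and 1873 normalised reads in the cassette, 1734 and 1686 with Nab3 depleted and 2449 and 2338 with Nrd1 depleted. Its groups did not overlap, with Nab3 lowest and Nrd1 highest (0.31 ± 0.06 after Nrd1 depletion, adjusted p = 0.00899). RRP12, an export factor, had 5214 and 5343, then 5162 and 4999, then 6407 and 6282. ENP2 had 2349 and 2494, then 2363 and 2066, then 2910 and 2760. For both, the Nrd1 libraries stood clear of the other 4, with 0.27 for RRP12 and 0.23 for ENP2. BFR2, a processome protein, had 2845 and 3021, then 2768 and 2823, then 3564 and 3284 (0.22, adjusted p = 0.0388). KRR1, which encodes an RNA-binding protein of the small-subunit precursor, had a log2 fold change of 0.20 and was the last of the 9. A further group lay above the cassette in both Nrd1 libraries and just missed the threshold: UTP20 had 0.24 (adjusted p = 0.056), IMP3 0.16 (0.0567), the helicase gene DBP8 0.17 (0.0601) and RRP5, whose large RNA-binding product serves both subunits, 0.22 (0.0640). UTP13, the second listed UtpB gene, had 0.14 (0.112). NOP14, RRP9 and IMP4 did not follow: their differences from the cassette were -0.03, -0.01 and -0.04 and did not pass.

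Of the 20 large-subunit genes, 5 rose after Nrd1 depletion, and the median was 0.08. DBP9, which encodes a DEAD-box RNA helicase, had 3003 and 3034 normalised reads in the cassette, 2972 and 2961 with Nab3 depleted and 3846 and 3555 with Nrd1 depleted (0.29 ± 0.06, adjusted p = 0.0119). Of the 6 helicase genes of this subunit it was the one that passed. MAK5 had 0.17 (adjusted p = 0.0528) and HAS1 0.11, both with the Nrd1 libraries above the cassette, and DBP3, DRS1 and SPB4 had 0.06, 0.01 and -0.03 with overlapping groups. SDA1, needed for export of the large subunit, had 2500 and 2467, then 2575 and 2449, then 3066 and 2966. NOP8, an RNA-binding assembly factor, had 2184 and 2268, then 2396 and 2523, then 2625 and 2841. In SDA1 the Nab3 libraries lay around the cassette, whereas in NOP8 they lay between the other groups. The log2 fold changes were 0.28 ± 0.05 (adjusted p = 0.00904) for SDA1 and 0.29 ± 0.06 (adjusted p = 0.0120) for NOP8. NOP12 and YTM1, the member behind SNR8, followed with 0.22 and 0.19. NOP7 and ERB1, which form a complex with Ytm1, had 0.16 and 0.07 and did not pass. The remaining nucleolar factors NOP15, NOP2, NOP4 and NOP16 had 0.09, -0.02, -0.05 and -0.07, none of them called.

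None of the 4 genes for GTPases and AAA ATPases of the large subunit was called in any of the 3 comparisons. NOG2 had 13279 and 13205 normalised reads in the cassette, 13209 and 12052 with Nab3 depleted and 14167 and 13297 with Nrd1 depleted. The NOG2 values with Nrd1 depleted were above the cassette by less than their own spread (0.05 ± 0.10, SE). NUG1, NOG1 and RIX7, the ATPase that strips a factor from the precursor, had -0.01, 0.13 and 0.01.

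Among the 7 genes for snoRNP proteins and nucleolin, NSR1 was the 1 that rose after Nrd1 depletion (14.3%, against 17.5% of all features). It encodes the yeast nucleolin, which acts in precursor processing. NSR1 had 4710 and 4923 normalised reads in the cassette, 5336 and 4850 with Nab3 depleted and 5941 and 5879 with Nrd1 depleted. The Nrd1 libraries stood above the other 4, and the Nab3 libraries spread across the cassette (0.30 ± 0.06 after Nrd1 depletion, adjusted p = 0.0126). NOP1, which encodes the methyltransferase fibrillarin of the box C/D particles, had 3642 and 3762, then 3656 and 3557, then 3988 and 4179. Its Nrd1 libraries were the highest, and the difference of 0.14 did not pass. NOP56 and NOP58, the other core proteins of these particles, had 0.14 and 0.01. CBF5 had 6342 and 6380, then 6171 and 5725, then 5854 and 5986. All 3 box H/ACA genes, CBF5, GAR1 and NHP2, had negative values after Nrd1 depletion (-0.10, -0.07 and -0.02), and none of them passed.

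The 3 polymerase genes had no call by limma after Nrd1 depletion, although both Nrd1 libraries lay above both cassette libraries for each of them. In the authors' deposited table RPA190 was called higher. RPA190, the largest subunit of RNA polymerase I, had 9750 and 10380 normalised reads in the cassette, 10157 and 9530 with Nab3 depleted and 12141 and 11841 with Nrd1 depleted. The difference was 0.25 ± 0.09 with an adjusted p of 0.0676. RPA135, its partner in the catalytic core, and RPC82, a subunit of RNA polymerase III, had 0.11 and 0.09.

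After Nab3 depletion 9 of the same 50 genes were called, in both directions. UTP5, UTP9 and UTP21 rose, with log2 fold changes of 0.15, 0.16 and 0.16, and 6 members fell: NOP14 (-0.20), IMP3 (-0.20), RRP9 (-0.19), ENP1 (-0.17), HAS1 (-0.15) and NOP2 (-0.14). The other 41 did not pass, with NOP8 (0.14, adjusted p = 0.0502) and NOP4 (-0.16, adjusted p = 0.0554) nearest to the threshold. Over all 6360 features tested, 21.1% were called higher and 18.7% lower, and among the 2481 features at least as abundant as the lowest member 24.3% and 18.1%, so the members' 6% and 12% were below the background in both directions. The median was -0.04 (interquartile range -0.10 to 0.01), against -0.01 over all features. Both Nab3 libraries lay above both cassette libraries for 7 members and below for 17, and did so for 34.7% and 36.3% of all features.

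The genes that fell have varied roles. NOP14, a processome protein, had 3214 and 3339 normalised reads in the cassette, 2816 and 2872 with Nab3 depleted and 3186 and 3211 with Nrd1 depleted. IMP3, which helps pair the snoRNA U3 with the precursor, had 1670 and 1655, then 1421 and 1464, then 1844 and 1880. RRP9, a protein of the U3 particle, had 2436 and 2472, then 2257 and 2058, then 2442 and 2441. In each of these the Nab3 libraries were the lowest, and the Nrd1 libraries were close to the cassette for NOP14 and RRP9 and above it for IMP3. HAS1, a helicase that acts on both subunits, had 3331 and 3545, then 3040 and 3146, then 3668 and 3725. NOP2, a methyltransferase of the large ribosomal RNA, had 2977 and 3119, then 2833 and 2691, then 3069 and 2928. The adjusted p was lowest for NOP14 (0.00617) and IMP3 (0.0106) and highest for NOP2 (0.0493).

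All 9 Nab3 calls held with either other pseudocount and either other filter, and most were lost under certain other settings. Without the trend 0 members were higher and 1 lower, against 1071 and 721 of all 6360 features. Without cassette library 1 or 2 most or all of the 9 calls were lost, and the members' median was -0.05 or -0.02. Without Nab3 library 2 or 3 the median was -0.06 or -0.02. With upper-quartile scaling or scaling to the total, 1 member was called higher and 9 lower, and 9 of 50 members had a positive value in place of 14. Over all 6359 features these scalings called 1191 and 1177 higher, and 1488 and 1454 lower.

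The depletions were then compared with each other, on all 6 libraries. ENP1, IMP3, ENP2, UTP8 and 12 further members were higher after Nrd1 than after Nab3 depletion, and 0 were lower, so 32% of the members were called higher. Of all 6385 features tested, 8.91% were called higher and 12.1% lower, and of the 2293 features at least as abundant as the lowest member 8.98% and 14.2%. Another scaling changed that overall split, from 569 higher and 772 lower to 817 and 634 with upper-quartile scaling and 722 and 626 with scaling to the total. It left the members at 26 and 24 higher, with 0 lower in both. The median of the members was 0.16, against -0.0034 over all features, and 47 of 50 had a positive value. Both Nrd1 libraries lay above both Nab3 libraries for 39 members and below for 0, where 30.1% and 31.0% of all features did so.

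ENP1 had the largest difference of the members, 0.48 ± 0.06 (adjusted p = 0.0013), a fold of 1.40. It fell after Nab3 depletion and rose after Nrd1 depletion. IMP3 followed with 0.37 ± 0.06 (adjusted p = 0.00342); it fell after Nab3 depletion, and its 0.16 after Nrd1 depletion did not pass. ENP2, UTP8, RRP12, DBP9, BFR2 and SDA1 differed by 0.26 to 0.36, and all of these rose after Nrd1 depletion and had no call after Nab3 depletion. RPA190 differed by 0.29 (adjusted p = 0.0332), with its 2 Nrd1 libraries above the other 4. HAS1 and NOP7, a scaffold of the large-subunit precursor, differed by 0.26 each. NOP7 had 4446 and 4297 normalised reads in the cassette, 4400 and 3776 with Nab3 depleted and 4925 and 4862 with Nrd1 depleted. UTP20, a very large processome protein, had 7945 and 8012, then 8289 and 7626, then 9787 and 9094 (0.25, adjusted p = 0.0481). For both the Nrd1 libraries were the highest, and Nab3 library 3 was the lowest of the 6. NOP12, UTP4, NSR1 and YTM1 differed by 0.19 to 0.22, with NSR1 just inside the threshold (adjusted p = 0.0499835). By contrast UTP5, UTP9 and UTP21, which rose in both comparisons with the cassette, differed by 0.17, 0.10 and 0.14 between depletions and did not pass.

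The calls of this comparison too depended on which library was left out, among the members and among all features. The members' median was 0.16 without either cassette library, and 0.20 or 0.14 without Nab3 library 2 or 3. Without Nrd1 library 1 or 2 it was 0.17 both times. Without the trend 6 members were called higher in place of 16, and 339 of all 6385 features in place of 569. ENP1 and IMP3 were called under every setting tried. In all, 24 members were called in at least 1 comparison and 26 in none, and 10 rose after Nrd1 depletion both against the cassette and against Nab3 depletion. Of all features, 2528 of 6360 were called for Nab3, 2238 of 6347 for Nrd1 and 1341 of 6385 between depletions. Their share called in any comparison, or higher in both, is not given here, so 24 and 10 are not read as an excess. The comparisons share libraries, so these counts are not independent.

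**Figure D4:**
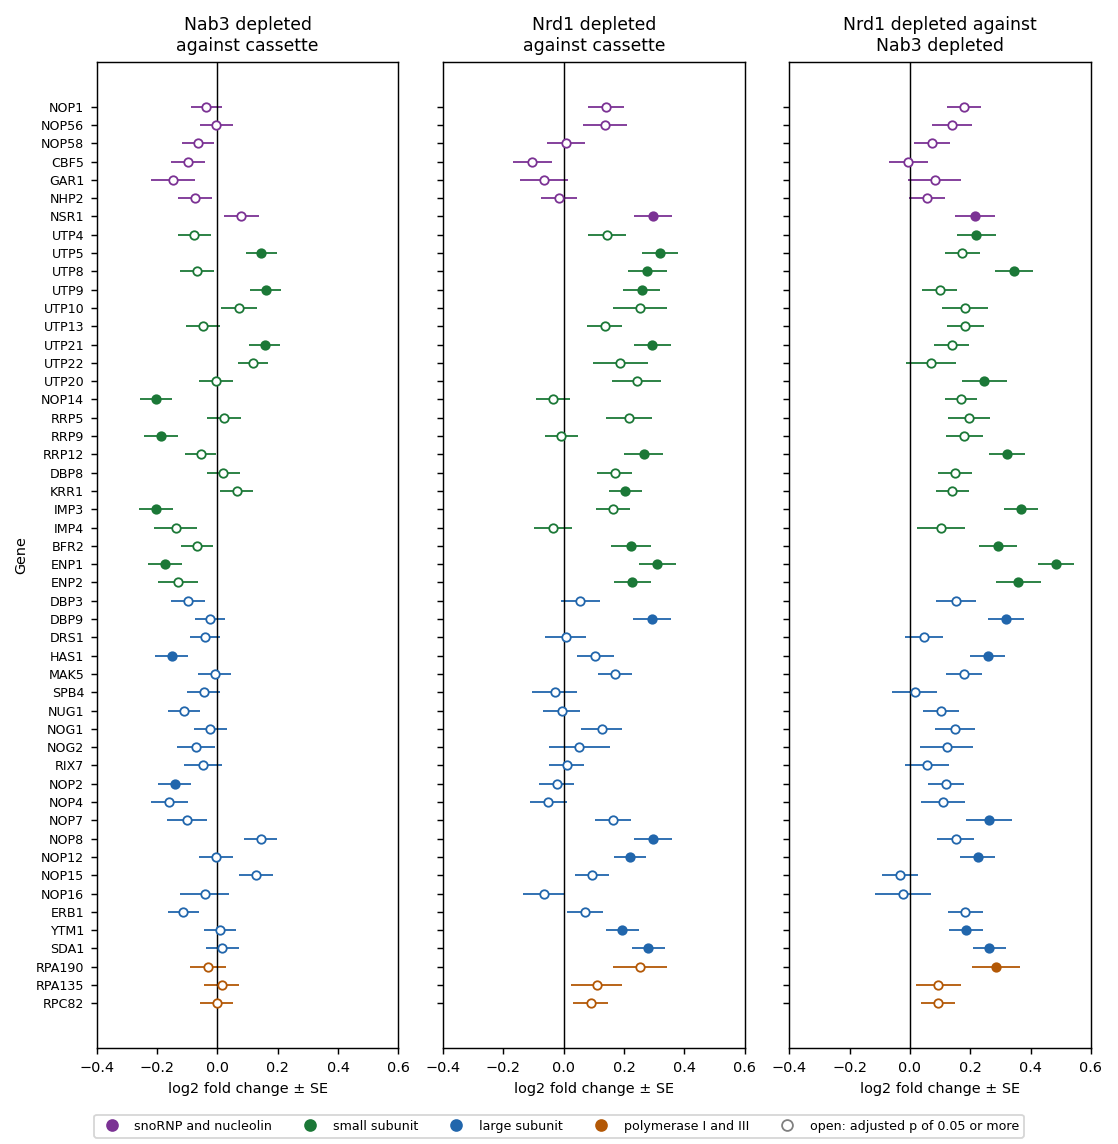
Log2 fold change (x axis, bars show the SE from limma) of each of the 50 genes (rows) in the 3 comparisons, coloured by class, with filled points where the adjusted p is under 0.05. Filled points lie on both sides of 0 for Nab3, and to the right only for Nrd1 and for Nrd1 against Nab3.

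The members' log2 fold changes ran from -0.20 to 0.16 after Nab3 depletion, from -0.10 to 0.32 after Nrd1 depletion and from -0.03 to 0.48 between depletions, a narrow band beside that of all features. The 25 members longer than the member median and the 25 shorter had medians of 0.14 and 0.14 after Nrd1 depletion, with 6 and 9 called, of 0.17 and 0.15 between depletions, and of -0.04 and -0.07 after Nab3 depletion. All features longer and shorter than that median had 0.05 and -0.03 after Nrd1 depletion, with 348 of 1540 and 762 of 4807 called higher. Members with a divergent upstream neighbour and those with a neighbour on the same strand had medians of 0.14 and 0.14. Across the 50 members, the log2 fold change after Nrd1 depletion had a Spearman correlation of -0.32 with reads per kb in the cassette and 0.24 with length. Across all features these were -0.38 and 0.07, and the cassette reads enter both sides of the first of them. The 25 members with at least 2 PAC matches had 10 calls after Nrd1 depletion and a median of 0.17, and the 25 with fewer had 5 and 0.14. Over all features 17.5% were called higher. An overlapping PAC pair counts as 2 matches in this split. For DBP3 and NOP12, 1 of their 2 matches lies inside the gene. Whether the number of matches plays a part was not tested.

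**Figure D5:**
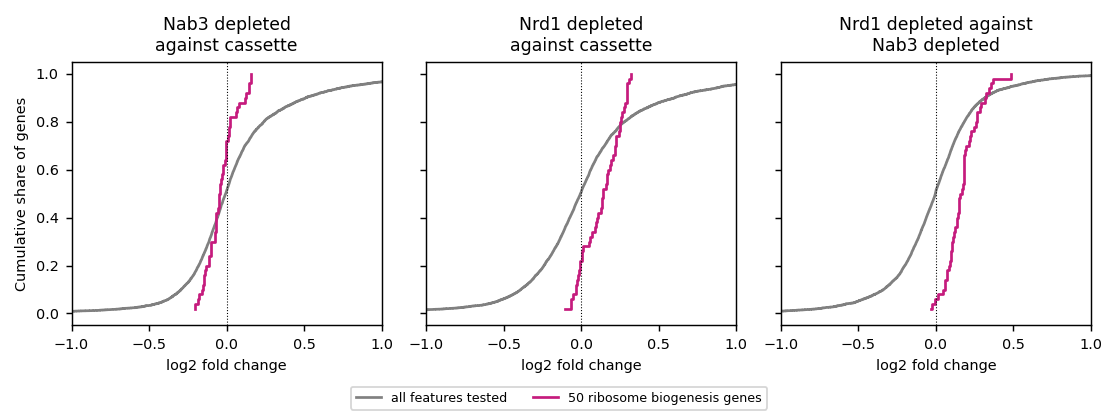
Cumulative share of genes (y axis) by log2 fold change (x axis) for the 50 ribosome biogenesis genes and for all features tested, in the 3 comparisons. The members' curve lies right of that of all features over most of its range after Nrd1 depletion and between depletions, with medians of 0.14 and 0.16, and left of it in its upper part after Nab3 depletion, with a median of -0.04.

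The remaining genes of the pathway were taken from a list of 156. After Nab3 depletion 18 (11.5%) were called higher and 26 (16.7%) lower, against 21.1% and 18.7% of all features. After Nrd1 depletion 48 (30.8%) were higher and 9 (5.77%) lower, against 17.5% and 17.8%. Between depletions 50 (32.1%) were higher in Nrd1 and 2 (1.28%) lower, against 8.91% and 12.1%. By role after Nrd1 depletion, 20 of 51 other small-subunit genes (39.2%) rose and 0 fell. Of 58 large-subunit genes 18 (31.0%) rose and 3 (5.17%) fell. Of 24 polymerase I and III genes 4 (16.7%) rose and 3 (12.5%) fell. Of 12 snoRNP genes 2 (16.7%) rose and 2 (16.7%) fell. The shares of these last 2 roles lay near or below those of all features. DHR2, which encodes an RNA helicase of the processome, had 2303 and 2275 normalised reads in the cassette, 2666 and 2421 with Nab3 depleted and 3262 and 3441 with Nrd1 depleted (0.55 after Nrd1 depletion and 0.40 between depletions). MDN1, the giant AAA ATPase that remodels the large-subunit precursor, had 7490 and 7665, then 9264 and 8979, then 12828 and 10659.5 (0.63 after Nrd1 depletion). NOC4, the partner of Nop14, had 4513 and 4765, then 4501 and 4698, then 6022 and 6105 (0.40 between depletions). For DHR2 and NOC4 the Nrd1 libraries stood above the rest, and for MDN1 the depleted groups were both above the cassette. NOP13, an RNA-binding nucleolar protein, had 2440 and 2581, then 3837 and 3991, then 3475 and 3662, with Nab3 highest (0.64 after Nab3 depletion).

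Of the 11 listed regulators of ribosome genes, 4 (36.4%) rose and 2 (18.2%) fell after Nab3 depletion, against 21.1% and 18.7% of all features. After Nrd1 depletion 4 (36.4%) rose and 1 (9.09%) fell, against 17.5% and 17.8%. CRF1, a corepressor of ribosomal protein genes, had 224 and 212 normalised reads in the cassette, 640 and 588 with Nab3 depleted and 637 and 696 with Nrd1 depleted (1.49 and 1.61, adjusted p = 2.69e-08 and 0.000176). TOD6, the PAC-binding repressor, had 1987 and 2079, then 1900 and 2032, then 2978 and 2769, which is 0.55 higher after Nrd1 than after Nab3 depletion (adjusted p = 0.00104). ABF1, a general promoter-binding factor, had 1598 and 1613, then 1126 and 1023, then 1191 and 1224 (-0.58 after Nab3 depletion). CRF1 was higher and ABF1 lower in both depletions, and TOD6 was high in the Nrd1 libraries and near the cassette in the Nab3 libraries. DOT6, SFP1 and STB3 are named after their values were seen. DOT6, the other PAC-binding repressor, differed from the cassette by 0.26 after Nab3 depletion (adjusted p = 0.00246) and by 0.22 after Nrd1 depletion (adjusted p = 0.0740). SFP1, an activator of the regulon, differed by 0.21 and 0.40 and was called in both. STB3, the RRPE-binding repressor, had -0.12 and -0.23 and was called in neither.

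The authors' deposited table sorts genes by function and labels 32 of the 50 members Ribi and 18 Other. Of its 171 Ribi genes, limma called 58 (33.9%) higher and 4 (2.34%) lower after Nrd1 depletion. After Nab3 depletion it called 20 (11.7%) higher and 24 (14.0%) lower. Its 129 Ribosome genes had 2 (1.55%) higher and 4 (3.1%) lower after Nrd1 depletion. After Nab3 depletion these had 2 (1.55%) higher and 31 (24.0%) lower. Of all features, limma called 17.5% higher and 17.8% lower for Nrd1, and 21.1% and 18.7% for Nab3. In the authors' deposited table itself, at the same threshold, 14 members were higher and 0 lower after Nrd1 depletion. Of the 14, 10 were also among the 15 that limma called, and the rest were UTP10, UTP20, RRP5 and RPA190. Over all 6558 genes with an adjusted p in the authors' deposited table for Nrd1 depletion, 11.6% were higher and 12% lower. In the authors' deposited table for Nab3 depletion, UTP9 and UTP21 were higher and NOP14 and IMP3 lower, which is 4% of the members each way, against 15.6% higher and 11.7% lower over its 6560 genes.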

How the data were processed

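PAR-CLIP reads per gene were measured in 10 libraries of 5 groups, of which 6 libraries of 3 groups had value columns used here. The deposited values are a signal in 2 tables. The values themselves show that it is reads divided by 1 size factor per library, since dividing by the smallest step gave whole reads within 0.01 for 100% of values. The submitters' processing notes list Bowtie 1.1.1, DESeq, R64 and sacCer3. How reads were counted, with which strand setting and with what handling of multiple hits is not given in these sources, so overlapping and near-identical genes are uncertain. The authors deposited log2 fold changes and adjusted p-values in their comparison tables. The Nab3 columns are numbered 2 and 3 and the sample titles 1 and 2, so they were assigned to the group only.

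Here log2(value + 1) was fitted with limma 3.58.1 (R 4.3.3, eBayes with trend) on features whose mean reached 10, with Benjamini-Hochberg adjustment over all features and a threshold of 0.05; fold changes on this scale understate those of low features. The fit was tested on simulated data. The rule for passing covered 2-fold changes and unchanged features, and not smaller changes like those of the members. Each table was fitted separately. Cassette columns held by both tables set the factor of 1.18 for the fit of 6 libraries. On the recovered reads, edgeR 4.0.16 called 2522, 2280 and 1337 features and DESeq2 1.42.0 called 1781, 1728 and 1074 for the Nab3, Nrd1 and direct comparisons. Gene lengths are the deposited ones; 5954 of 6677 features matched the RefSeq annotation.

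The members, the gene lists and the rules were chosen with earlier results of these data known. By rule, all members may be named, values in every library are given for the 12 members with the largest called change per comparison and for 1 member of each role without calls, and of the other pathway genes, the 3 with the largest called change per comparison are named. Promoter windows were read from the R64 genome, since no promoter table was used.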

Additional observations from a re-analysis of the deposited data

Results flagged for a closer look

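For 16 members the values after Nrd1 depletion and after Nab3 depletion differed by the test of the difference itself (limma, 6 libraries, adjusted p under 0.05), all in 1 direction, with the Nrd1 libraries higher. Among small-subunit genes the log2 differences were 0.48 for ENP1, 0.37 for IMP3, 0.36 for ENP2, 0.35 for UTP8, 0.32 for RRP12, 0.29 for BFR2, 0.25 for UTP20 and 0.22 for UTP4. Large-subunit genes had 0.32 for DBP9, 0.26 for SDA1, 0.26 for NOP7, 0.26 for HAS1, 0.22 for NOP12 and 0.19 for YTM1. The nucleolin gene NSR1 had 0.22 and the polymerase I gene RPA190 had 0.29. Of all 6385 features tested, 8.91% were called higher and 12.1% lower. Both Nrd1 libraries lay above both Nab3 libraries for each of the 16 members, as for 30.1% of all features. The 16 were picked by the test of this same difference, so their lack of overlap adds no support.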

How the results depend on the processing

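Counts are given as features called, then members higher and lower. With eBayes without trend they were 1792, 0 and 1 for Nab3 (2528, 3 and 6 as reported), 1532, 7 and 0 for Nrd1 (2238, 15 and 0) and 775, 6 and 0 between depletions (1341, 16 and 0). Members higher for Nab3 were 1 with upper-quartile scaling and 1 with scaling to the total; between depletions they were 26 and 24. DESeq2 gave Nab3 1 member lower, and all 6 libraries in 1 fit gave Nab3 1679, 0 and 2. The same fit gave Nrd1 2530, 22 and 0, with 1280 of all 6385 features higher. Leaving out 1 library in turn gave 1672 to 2803 features, 0 to 4 members higher and 1 to 13 lower for Nab3; 640 to 3617, 0 to 26 and 0 for Nrd1; and 411 to 2079, 3 to 23 and 0 between depletions. With 1 library left in a group, that library is assumed to vary like the others. No called member changed sign under any setting. Of the called members, 0 of 9 for Nab3, 0 of 15 for Nrd1 and 2 of 16 between depletions (ENP1 and IMP3) were called under every setting; without counting left-out libraries these were 0, 7 and 6. The members' median ran from -0.08 to -0.02, 0.14 to 0.15, and 0.14 to 0.20. Causes were not tested. Replicate numbers shared by the cassette and Nrd1 libraries did not pair them (r = 0.01 across features for same numbers). The crossed value, -0.01, is fixed as its negative with 2 libraries a group and adds nothing. A fit with the replicate block called 2243 features and 14 members. The Nab3 columns carry no matching numbers. With 2 libraries a group, depth and replicate number limit what small changes can be called.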

Other observations

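Outside the ribosome biogenesis lists, 271 protein-coding genes tested after Nrd1 depletion held both a PAC and an RRPE core in the same promoter window. Of these, 51 (18.8%) were called higher and 37 (13.7%) lower, with a median log2 fold change of 0.04. Of the 3604 genes with neither core, 517 (14.3%) were called higher and 774 (21.5%) lower, with a median of -0.05. Genes with 1 of the cores lay between or beside these: of 628 with PAC alone, 17.0% were called higher and 20.1% lower (median -0.04), and of 852 with RRPE alone, 18.0% and 17.7% (median 0.01). Between depletions, 42 of 271 (15.5%) with both cores were higher in Nrd1 and 19 (7.01%) lower, against 218 of 3613 (6.03%) and 544 (15.1%) with neither, 8.27% and 12.7% with PAC alone and 9.47% and 11.2% with RRPE alone. After Nab3 depletion the medians were -0.05 with both cores, -0.03 with PAC alone, -0.01 with RRPE alone and -0.01 with neither. The 32 genes that the authors' deposited table labels Proteasome had 29 called lower and 0 higher in each comparison with the cassette.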
